A study of Mus musculus with 9 samples.

Results

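The genes described here make, package and clear the inhibitory transmitters GABA and glycine. They were Gad1, Gad2, Slc32a1, Slc6a9, Slc6a5 and Slc6a11, and their probes were found by the gene name printed on the array. The 6 genes had 12 probes, out of 37325 genes and 56605 gene probes in all. RNA came from mouse retinal organoids, that is, tissue with retinal cell types that forms when ES or iPS cells reaggregate in serum-free suspension. The 3 lines were wild type (WT), a Bhlhb4 knockout (B4KO, the gene now named Bhlhe23) and an Islet-1 knockout (Isl1KO), both engineered so that fewer bipolar cells would form. Each line was sampled once on differentiation days 10, 16 and 23 (DD10, DD16 and DD23), giving 9 one-colour arrays, and each sample pooled 5 organoids. No allele, clone number or agent beyond the genotypes was named in the labels.

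GABA is made from glutamate by 2 glutamate decarboxylases, GAD67 (Gad1) and GAD65 (Gad2). One carrier, VGAT (Slc32a1), loads both GABA and glycine into synaptic vesicles. The glycine transporters GlyT1 (Slc6a9) and GlyT2 (Slc6a5) take up glycine, and GAT-3 (Slc6a11) takes up GABA. In the retina these inhibitory transmitters belong mainly to amacrine and horizontal cells, GlyT1 is the transporter of glycinergic amacrine cells, and GABA transporters are also found in Müller glia, whereas GlyT2 is best known from the brainstem and spinal cord.

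Gad1 was represented by 4 probes that did not behave alike, so the first 30 bases of each are shown, with the position of each probe in build mm9. Each name gives what the probe was designed from, and the bases are in lower case because none is singled out.
Gad1 predicted variant, chr2:70399873-70399932: gtaggaattatattttcccttgccctcacc
Gad1 Ensembl transcript, chr2:70414796-70414855: gcctcaacacatatctgaaccttcatgaat
Gad1 cerebellum cDNA, chr2:70423102-70423161: gatcttgcttccatgactgtcctaccagac
Gad1 RefSeq mRNA, chr2:70439699-70439758: gagtgcccttaacataatgatttgaacata
Each was 60 bases long. The RefSeq mRNA probe started 39826 bases from the start of the predicted variant probe, in the direction in which Gad1 is transcribed. Which exon, intron or untranslated region each probe lies in was not analysed here, because no mm9 annotation was used.

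The promoters of the 3 genes that make and package GABA are shown because probes of all 3 rose over the days. Each line gives the 250 bases before the RefSeq start on the plus strand of GRCm38.p6, 5′ to 3′.
Gad1, chr2:70561879-70562128: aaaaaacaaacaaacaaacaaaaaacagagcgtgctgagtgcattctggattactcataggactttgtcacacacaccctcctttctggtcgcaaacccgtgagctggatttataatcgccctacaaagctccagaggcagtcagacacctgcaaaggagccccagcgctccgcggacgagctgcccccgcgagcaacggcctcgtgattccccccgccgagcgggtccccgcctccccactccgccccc
Gad2, chr2:22622077-22622326: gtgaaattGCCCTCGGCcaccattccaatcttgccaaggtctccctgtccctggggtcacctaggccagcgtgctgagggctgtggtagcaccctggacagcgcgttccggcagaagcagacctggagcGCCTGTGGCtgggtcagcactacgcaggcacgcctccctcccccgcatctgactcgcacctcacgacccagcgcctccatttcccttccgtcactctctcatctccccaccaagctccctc
Slc32a1, chr2:158610508-158610757: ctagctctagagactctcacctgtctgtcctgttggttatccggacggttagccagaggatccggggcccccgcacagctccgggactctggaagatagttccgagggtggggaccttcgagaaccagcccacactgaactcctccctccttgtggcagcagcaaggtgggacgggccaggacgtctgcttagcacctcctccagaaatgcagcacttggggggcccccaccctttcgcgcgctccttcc
The capitals mark the AP-2 letters GCCNNNGGC, searched on both strands. Gad2 held 2 such matches and the Slc6a11 promoter 1, and 13.7% of 32851 mouse promoter windows of the same length held at least 1. The E-box CAGCTG (13.0% of windows) and the homeodomain letters TAATTA (4.84%) were in none of the 9 promoter windows of the 6 genes, and the RBPJ letters TGGGAA (21.6%) were in 1 window of Slc6a5. A match is a run of letters in this window and was not tested as a binding site.

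Levels are given as log2 of the processed intensity over the 75th percentile of the array, so that 0 is the brightness of the 75th percentile spot, and levels of different probes are not comparable. The Slc32a1, Slc6a9 and Gad1 predicted variant probes were well above background on all 9 arrays, and the RefSeq mRNA probes of Gad1 and Gad2 on 8. Both Slc6a5 probes and the Gad1 Ensembl transcript probe were well above background on none. In all, 9 of the 12 probes and 5 of the 6 genes passed the filter of 3 arrays well above background and were tested with 36326 probes or 23594 genes. Of these, Slc6a11, Gad1 cerebellum cDNA and Gad2 spinal cord cDNA were well above background on no DD10 array, so they passed through the later days and had to be higher there.

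The arrays had 57.3% to 67.8% of gene spots well above background and none saturated. The 3 B4KO arrays lay on a slide of their own and the 6 other arrays on another, so B4KO and its slide cannot be told apart, nor can the day and the column of the array on its slide. All 8 retinal markers, among them Rax, Six3 and Pax6, were well above background in every sample. Of the targeted genes, 1 probe of Isl1 differed between Isl1KO and WT by -0.65, -1.88 and -1.58 on the log2 scale at DD10, DD16 and DD23, and the other by 0.37, -0.76 and -0.26. Bhlhe23 differed between B4KO and WT by -0.22, -2.05 and -2.09 on the 3 days, and between Isl1KO and WT by 0.25, -1.73 and -2.01. Whether these probes lie within the deleted parts is not stated in the labels, so they do not check the labels.

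Transcripts for the synthesis and vesicular loading of GABA rose steeply between DD10 and DD23 in all 3 lines. Slc32a1 rose 34.4-fold, Gad1 by its RefSeq mRNA probe 19.5-fold and Gad2 by its RefSeq mRNA probe 18.6-fold, the last 2 from a day on which 2 of 3 arrays measured them. These folds depend on the background correction. On the log2 scale the 3 rises were 5.10, 4.29 and 4.22, and with normexp background correction 4.51, 3.03 and 2.94. Slc6a9, already bright at DD10, rose 2.39-fold, and Slc6a11 came up from background. Slc6a5 was well above background on no array. In whole-organoid RNA, a change in the number of cells of a type and a change in RNA per cell cannot be told apart.

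**Figure D1:**
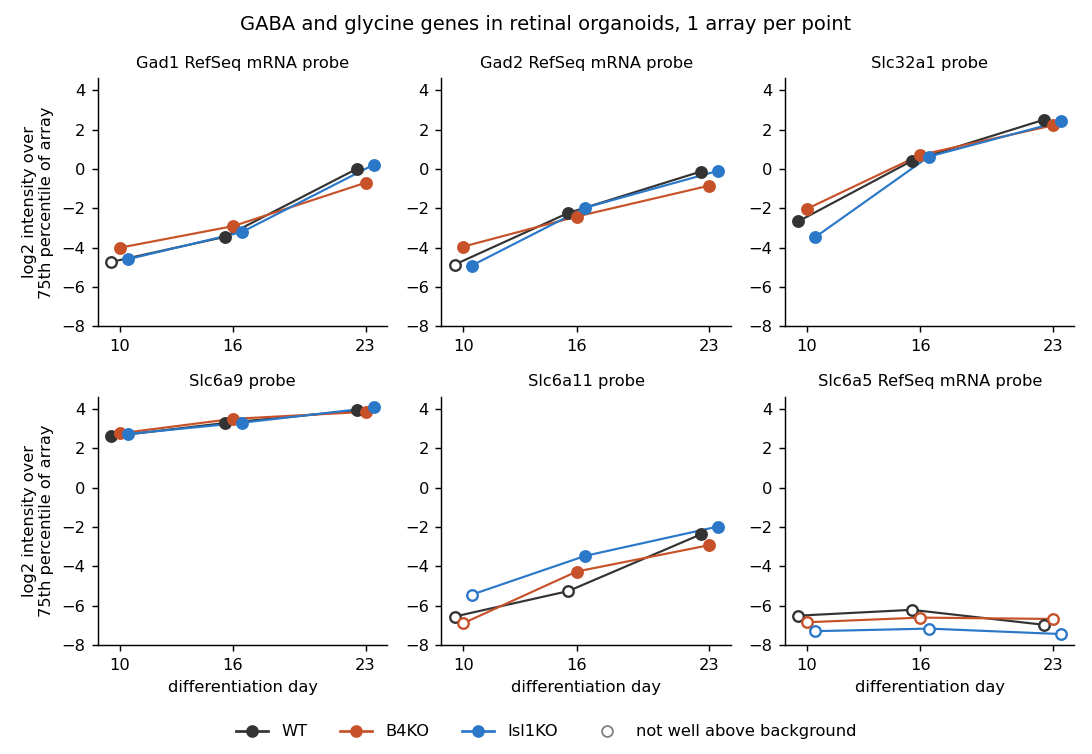
Level (log2 intensity over the 75th percentile of the array) against differentiation day for 1 probe of each of the 6 genes. Each point is 1 array and each colour a line, shifted slightly sideways, and open points were not well above background. Slc32a1 rose from between -3.47 and -2.03 at DD10 to between 2.21 and 2.51 at DD23, and Slc6a5 stayed below -6 throughout.

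Slc32a1, the vesicular carrier, had levels of -2.67, 0.41 and 2.51 in WT at DD10, DD16 and DD23. The levels were -2.03, 0.71 and 2.21 in B4KO, and -3.47, 0.63 and 2.42 in Isl1KO. The 3 days did not overlap, and the lines lay closer together at DD16 and DD23 than at DD10. The rise from DD10 to DD16 was 3.30 on the log2 scale (SE 0.31, limma adjusted p = 0.00125), and that from DD16 to DD23 was 1.80 (SE 0.31, adjusted p = 0.00708). Over both intervals the difference was 5.10 (95% interval 4.35 to 5.86, adjusted p = 8.94e-05), and it was positive in 3 of 3 lines.

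Gad2, which makes the GABA pool tied to vesicles, had RefSeq mRNA probe levels of -4.87, -2.24 and -0.14 in WT. The levels were -3.95, -2.42 and -0.85 in B4KO, and -4.92, -1.97 and -0.10 in Isl1KO. The days did not overlap, and the WT array at DD10 was the 1 array not well above background. The rise was 2.37 to DD16 (SE 0.34, limma adjusted p = 0.0044) and a further 1.85 to DD23 (SE 0.34, adjusted p = 0.00894). The diencephalon cDNA probe rose by 1.51 from DD16 to DD23 (adjusted p = 0.024). At DD10 it was well above background only in B4KO, so its difference of 2.11 from DD10 to DD16 rests on background readings in the other 2 lines. The spinal cord cDNA probe was measurable at DD23 alone, where it was at least 3.87-fold brighter than at DD10, and it passed the filter only through that day.

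Gad1, which makes most cellular GABA, had RefSeq mRNA probe levels of -4.73, -3.46 and 0.01 in WT. The levels were -4.01, -2.91 and -0.70 in B4KO, and -4.59, -3.21 and 0.22 in Isl1KO. The days did not overlap, the WT array at DD10 was not well above background, and the DD23 levels stood far above those of both earlier days. In processed intensity the 3 WT arrays read 42.7, 86.1 and 947, and the Isl1KO arrays 47.3, 103 and 1091. The rise to DD16 was 1.25 on the log2 scale (SE 0.31, limma adjusted p = 0.0235), a call lost under quantile normalization (1.14, adjusted p = 0.0507) and without either WT or Isl1KO array of DD10 or DD16 or the B4KO array of DD16, where the adjusted p reached 0.0955. The rise from DD16 to DD23 was 3.04 (SE 0.31, adjusted p = 0.0017).

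The other Gad1 probes gave different readings. The predicted variant probe had levels of -1.26, -1.10 and -1.32 in WT, -2.04, -1.82 and -2.07 in B4KO and -1.25, -1.14 and -1.34 in Isl1KO. It was flat over the days within each line, and its DD23 to DD10 difference was -0.06 (95% interval -0.23 to 0.11, limma adjusted p = 0.474). Its small fall of -0.22 from DD16 to DD23 passed the threshold (adjusted p = 0.0475), but did not in any fit that left out 1 array (adjusted p 0.0612 to 0.147). The cerebellum cDNA probe was measurable at DD23 alone, through which it passed the filter, and was there at least 2.09-fold brighter than at DD16. The Ensembl transcript probe read between 4.61 and 10.8 intensity units and was never above background. The rule of 1 probe per gene took the predicted variant probe, the brightest by its mean over arrays, so that the gene Gad1 was not called higher over the days, whereas with its RefSeq mRNA probe it was.

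**Figure D2:**
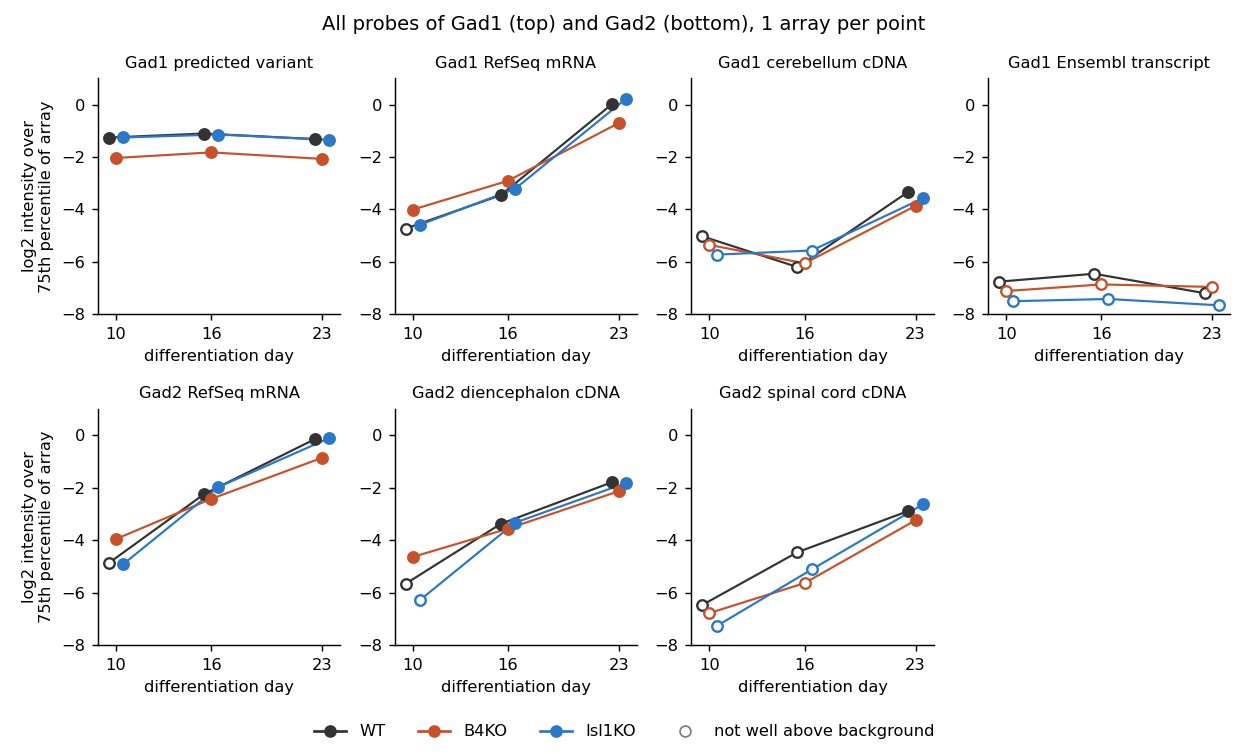
Level (log2 intensity over the 75th percentile of the array) against differentiation day for the 4 Gad1 probes (top) and the 3 Gad2 probes (bottom), 1 array per point, with open points not well above background. The Gad1 RefSeq mRNA probe rose to between -0.70 and 0.22 at DD23, while the predicted variant probe kept within 0.25 of its own earlier level in each line.

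Among the transporters of the plasma membrane, Slc6a9 had levels of 2.61, 3.29 and 3.93 in WT, 2.76, 3.50 and 3.86 in B4KO and 2.73, 3.30 and 4.08 in Isl1KO. It was a bright probe on every array, and the days did not overlap. It rose by 0.66 to DD16 (SE 0.10, limma adjusted p = 0.00487) and by 0.59 to DD23 (SE 0.10, adjusted p = 0.00643). Slc6a11 read -6.55, -5.26 and -2.37 in WT, -6.89, -4.26 and -2.92 in B4KO and -5.44, -3.46 and -1.98 in Isl1KO. It was well above background in no DD10 array, in B4KO and Isl1KO at DD16 and in all 3 lines at DD23, and the days did not overlap. Its DD23 signal was at least 5.44-fold that of DD10 in processed intensity, whereas with normexp background correction the difference was 1.62 on the log2 scale, a smaller fold than that bound. Slc6a5 gave at most 12.8 intensity units by its RefSeq mRNA probe and at most 11.6 by its Ensembl transcript probe, where the dimmest spots well above background read 22.1 to 50.9 on the different arrays.

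Of the 6 probes measurable on at least 1 DD10 array, 5 rose from DD10 to DD16 and 0 fell, against 20.6% of all probes higher and 18.3% lower. From DD16 to DD23, 5 rose and 1 fell, against 18.3% higher and 20.3% lower. From DD10 to DD23, 5 rose and 0 fell, against 30.7% higher and 28.9% lower. With 1 probe per gene, 3 of the 4 genes so measurable rose over each interval, where 21.9%, 19.3% and 31.6% of all genes rose and 18.8%, 21.9% and 29.2% fell, and Gad1 was the exception. The median difference over all genes was 0.03, 0.01 and 0.05. With normexp background correction the DD10 to DD23 differences were smaller, at 4.51 for Slc32a1 and at 3.03 and 2.94 for the RefSeq mRNA probes of Gad1 and Gad2, and these 3 kept their calls. Of the 6 probes counted above, the Gad2 diencephalon cDNA probe was well above background on 1 of 3 DD10 arrays. Only the Slc32a1, Slc6a9 and Gad1 predicted variant probes were so on all 3.

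The share of the rise that fell in each interval differed between probes in value. The contrast of the later with the earlier interval, chosen after the values were seen, was -1.51 for Slc32a1 (SE 0.54) and 1.79 for the Gad1 RefSeq mRNA probe (SE 0.54). Neither passed limma's adjustment over all 36326 probes (adjusted p = 0.103 and 0.0678). It was -0.52 for Gad2 and -0.07 for Slc6a9, both with intervals that span 0.

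**Figure D3:**
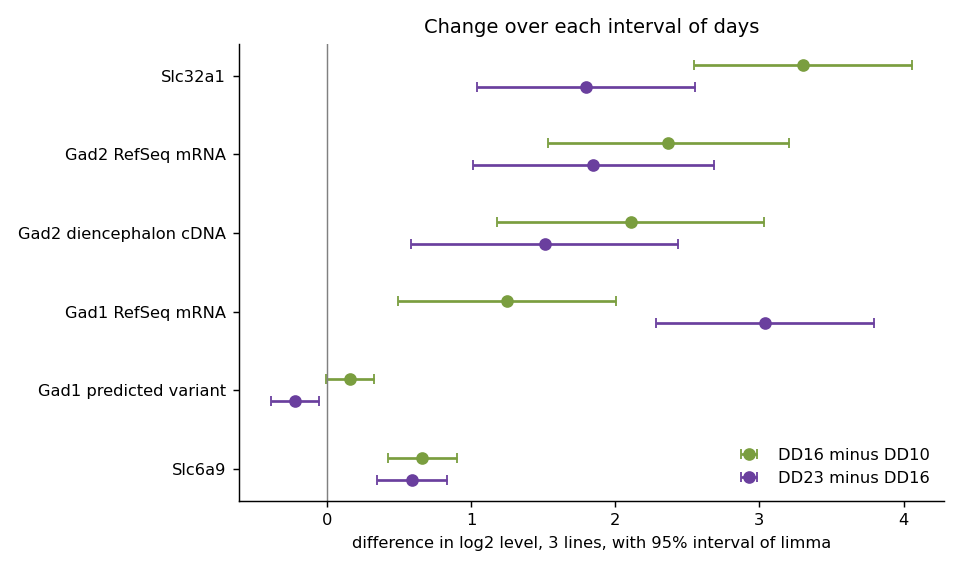
Difference in log2 level over each interval of days for 6 probes, as the mean over 3 lines with the 95% interval of limma. At DD10 the Gad1 and Gad2 RefSeq mRNA probes were well above background on 2 arrays and the Gad2 diencephalon cDNA probe on 1. Slc32a1 changed by 3.30 and then 1.80, and the Gad1 RefSeq mRNA probe by 1.25 and then 3.04.

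Loss of Islet-1 was accompanied by no called change in these genes. Of the 9 tested probes 0 were called higher and 0 lower in Isl1KO than in WT by limma, and 1 had an unadjusted p under 0.05, while 0.00275% of all probes were called higher and 0% lower and 2871 of them had an unadjusted p under 0.05. The RefSeq mRNA probes differed by 0.20 for Gad1 (95% interval -0.56 to 0.95) and by 0.09 for Gad2 (95% interval -0.75 to 0.92). Slc32a1 differed by -0.22 (95% interval -0.98 to 0.53) and Slc6a9 by 0.10 (95% interval -0.14 to 0.34). The intervals for Gad1, Gad2 and Slc32a1 are wide enough to hold changes of more than 1.5-fold.

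Slc6a11 was the probe with the small unadjusted p. It was higher in Isl1KO than in WT by 1.11 at DD10, 1.79 at DD16 and 0.40 at DD23. Both arrays were at background at DD10 and the WT array also at DD16, where the difference was at least 0.75 with WT set to the lowest signal well above background. The mean difference was 1.10 (SE 0.32, limma adjusted p = 0.521), and it rests on those readings. Against B4KO it was higher by 1.06 (adjusted p = 0.0737), with a call at 0.0173 in the fit without the WT array of DD16. At DD23, where all 3 lines were measurable, the intensities were 181 in WT, 120 in B4KO and 237 in Isl1KO.

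In B4KO the 1 called difference among the 9 tested probes was in the Gad1 predicted variant probe, which lay below WT by 0.78, 0.72 and 0.76 at DD10, DD16 and DD23. All 3 B4KO levels were below all 6 of the other lines. The mean difference was -0.75 (SE 0.07, limma adjusted p = 0.00129), that is 1.68-fold lower, and against Isl1KO it was lower in B4KO by a similar amount, Isl1KO minus B4KO being 0.73 (adjusted p = 0.00129). Of the 9 probes 0 were higher and 1 lower in B4KO than in WT, where 3.04% of all probes were higher and 13.5% lower. Of the 9 probes 1 was higher and 0 lower in Isl1KO than in B4KO, where 13.8% of all probes were higher and 2.68% lower. The line and its slide cannot be told apart in these comparisons.

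The other probes did not differ in one direction between B4KO and WT. The Gad1 RefSeq mRNA probe was higher in B4KO by 0.72 at DD10 and 0.55 at DD16 and lower by 0.71 at DD23. Gad2 by its RefSeq mRNA probe went from 0.91 higher at DD10 to 0.18 lower at DD16 and 0.71 lower at DD23, and Slc32a1 from 0.63 and 0.30 higher to 0.29 lower. The WT array at DD10 was not well above background for Gad1 and Gad2, and with it set to its lowest signal well above background B4KO was higher there by at least 0.51 and 0.57. B4KO thus had the highest level of the 3 lines at DD10 and the lowest at DD23 for each of these probes. The mean differences were 0.19 for Gad1 (95% interval -0.57 to 0.94), 0.01 for Gad2 (95% interval -0.83 to 0.84) and 0.21 for Slc32a1 (95% interval -0.54 to 0.97). Slc6a9 differed by 0.10 (95% interval -0.14 to 0.34) and Slc6a11 by 0.04 (95% interval -0.73 to 0.81). Without the B4KO array of DD23, the Gad1 RefSeq mRNA probe was called higher in B4KO, by 0.64 (limma adjusted p = 0.0214).

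A model with an extra term for each knockout at DD23, which has 2 residual degrees of freedom, tested this turn. For the Gad1 RefSeq mRNA probe the term in B4KO was -1.35 (limma, unadjusted p = 0.00278, adjusted p = 0.718). It was -1.08 for Gad2 and -0.76 for Slc32a1, each with an adjusted p of 0.924. Of all 36326 probes 0 were called in either knockout, so the turn at DD23 was not resolved from the spread between arrays. In fold terms, the Gad1 RefSeq mRNA probe rose 9.90-fold from DD10 to DD23 in B4KO, at least 23.1-fold in WT, where DD10 was not well above background, and 28.1-fold in Isl1KO.

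**Figure D4:**
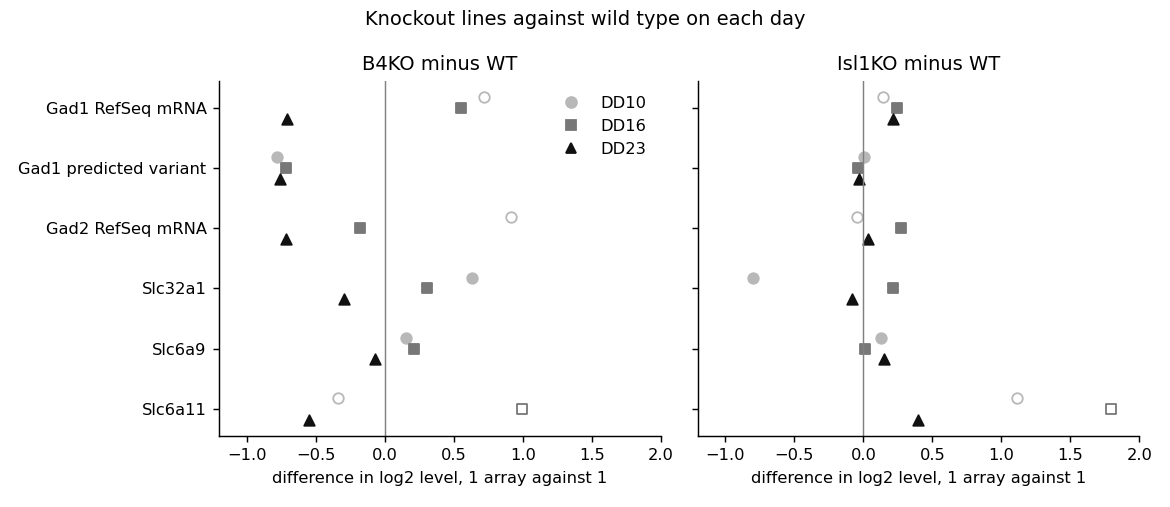
Difference in log2 level between a knockout line and WT on each day for 6 probes, 1 array against 1, so that no point has an error of its own, with open points where either array was not well above background. In B4KO the Gad1 predicted variant probe lay between -0.78 and -0.72 on all days, while the Gad1 and Gad2 RefSeq mRNA probes and Slc32a1 went from positive at DD10 to negative at DD23.

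Other genes of GABA and glycine metabolism were counted from lists, with 1 probe per gene. Of 37 genes on the 8 lists 35 were tested, and from DD10 to DD23 12 were higher and 11 lower. From DD10 to DD16 10 were higher and 6 lower, and from DD16 to DD23 8 and 10. Of all genes 31.6% were higher and 29.2% lower from DD10 to DD23. The shares of all genes were 21.9% higher and 18.8% lower from DD10 to DD16. From DD16 to DD23 they were 19.3% and 21.9%.

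Of the GABA uptake genes, Slc6a13, or GAT-2, fell by 0.71 from DD10 to DD23 (limma adjusted p = 0.00805), and Slc6a12 did not pass the filter. Of the 2 genes of GABA breakdown, Abat, the GABA transaminase, rose by 1.09 to DD16 (adjusted p = 0.00453) and then fell by 0.64 (adjusted p = 0.0228), each by 1 of its 3 probes. Aldh5a1, which completes the breakdown to succinate, rose by 0.35 from DD10 to DD23 (adjusted p = 0.0123). Pdxk, a kinase that makes the pyridoxal phosphate cofactor of the decarboxylases, rose by 0.70 over the same span (adjusted p = 0.000817), with its other probe not called.

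The supply of glutamate and glutamine was mixed, with 4 of 10 genes higher and 2 lower from DD10 to DD23 and a median of 0.15. Over that span 31.6% of all genes were higher and 29.2% lower. The glutamate transporters Slc1a1 and Slc1a2 rose most, by 5.82 (limma adjusted p = 8.38e-05, with 2 of 3 DD10 arrays well above background) and 5.20 (adjusted p = 8.67e-05), and Slc1a3 rose by 0.46 (adjusted p = 0.0112) by 1 of its 2 probes. The glutamine transporter Slc38a3 rose by 0.67 (adjusted p = 0.00648). Slc38a2 fell by 1.59 (adjusted p = 5.82e-05), and Slc38a5, at background at DD23, was there at least 8.38-fold dimmer. Slc38a5 passed the filter through the earlier days, so it had to be lower at DD23. Glutamine synthetase, Glul, with -0.13, did not pass, and neither did any of its 3 probes.

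On the glycine side, 2 of the 5 tested genes of serine and glycine synthesis rose from DD10 to DD16, when Slc6a9 also rose, and 1 fell, where 21.9% of all genes rose and 18.8% fell. Psat1, the aminotransferase, rose by 0.51 (limma adjusted p = 0.00584) and Shmt2 by 0.72 (adjusted p = 0.00361), while Shmt1 fell by 0.84 (adjusted p = 0.00734), each by 1 of its 2 probes. All 5 tested genes of the serine and glycine pathway fell from DD16 to DD23, with a median of -0.86, where 21.9% of all genes fell. Over that interval Slc6a9 rose again, by 0.59 (limma adjusted p = 0.00643). Phgdh, the entry enzyme, fell by 1.28 (limma adjusted p = 0.00323) and Psat1 by 1.18 (adjusted p = 0.000764). Shmt2 and Shmt1, the enzymes that turn serine into glycine, fell by 0.86 (adjusted p = 0.0021) and 0.84 (adjusted p = 0.00694), and Psph by 0.25 (adjusted p = 0.0343). Over DD10 to DD23, 4 of the 5 fell, where 29.2% of all genes fell. Among them Psph, with -0.21 (limma adjusted p = 0.045), was not called in the fit of all probes. In the glycine cleavage system, 3 of 4 genes fell over that span, against the same share, Amt by 1.01 (adjusted p = 0.0012), Gcsh by 0.74 (adjusted p = 0.000599) and Dld by 0.36 (adjusted p = 0.00612), while Gldc, the glycine decarboxylase, rose by 0.48 (adjusted p = 0.0261).

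Of 5 tested other vesicular transporters, 1 rose from DD10 to DD23 and 0 fell, where 31.6% of all genes rose and 29.2% fell. This was Slc17a7, the glutamate carrier VGLUT1, with 3.77 (limma adjusted p = 0.00277), a difference from a DD10 level at background on 2 of 3 arrays, while the acetylcholine carrier Slc18a3 had 2.42 and Slc17a6 had -0.68, neither of which passed. On the receiving side, Slc12a5, the chloride exporter KCC2, rose by 2.59 (adjusted p = 9.61e-05) and Slc12a2, the chloride importer NKCC1, fell by 0.41 (adjusted p = 0.00588). Gphn (gephyrin), the scaffold of inhibitory postsynapses, had 0.33 and Nlgn2 had -0.11, and neither passed.

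**Figure D5:**
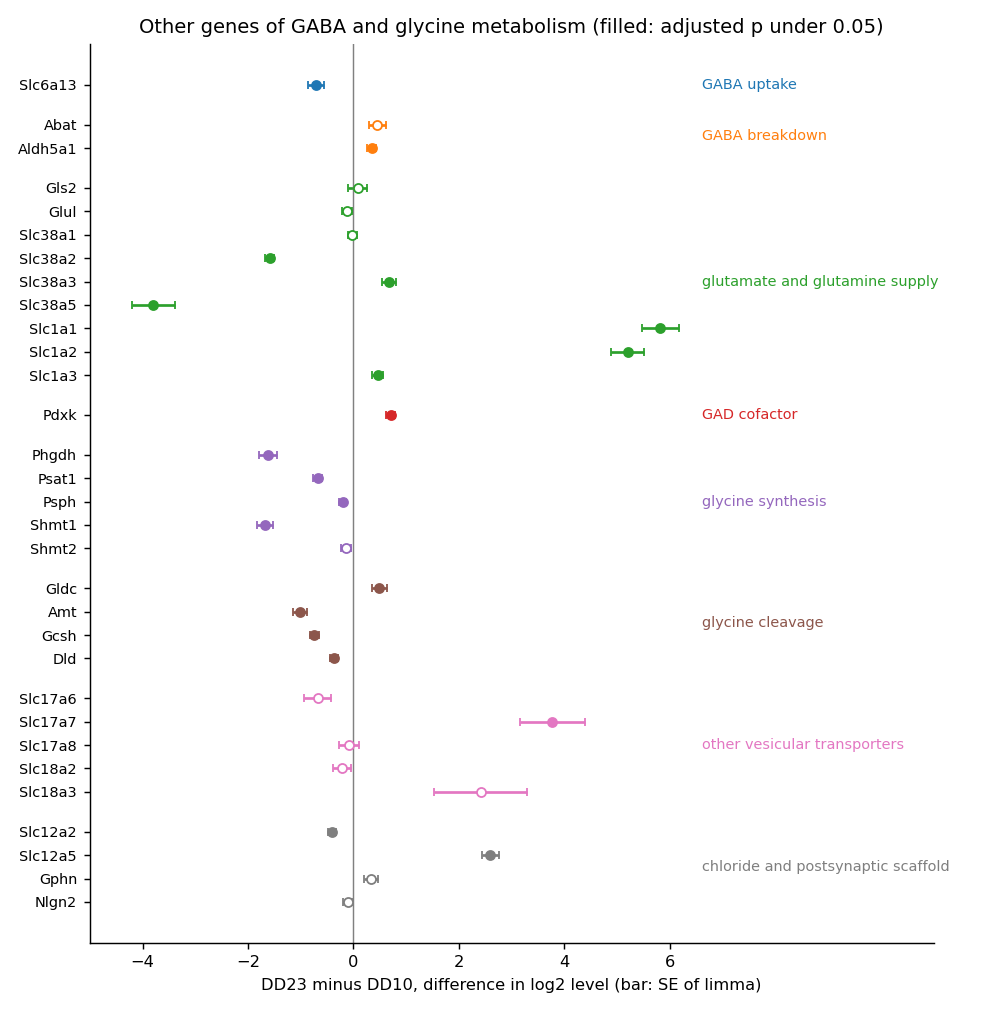
Difference in log2 level between DD23 and DD10 for 31 of the 35 tested genes of 8 lists, as the mean over 3 lines with the SE of limma, filled where the adjusted p was under 0.05. Slc1a1 at 5.82 and Slc1a2 at 5.20 lie far to the right, and most genes of glycine synthesis lie left of 0.

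Between lines, 0 of the 35 genes were called in Isl1KO against WT by limma, where 0.00424% of all genes were called higher and 0% lower. In B4KO 3 were higher than in WT and 0 lower, where 3.99% of all genes were higher and 18% lower. Among them were Slc6a13, by 0.57 (adjusted p = 0.0467), and Slc38a2, by 0.40 (adjusted p = 0.0172). Of the 35 genes 1 was called between the knockouts, Slc38a2, which was lower in Isl1KO by 0.43 (adjusted p = 0.013), where 18.1% of all genes were higher in Isl1KO and 3.8% lower.

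Markers of cells that carry these transmitters were followed beside them. All 14 amacrine factors and markers were tested, and 12 were well above background in all 3 lines at DD10. Of the 14, 7 were higher and 2 lower at DD23 than at DD10. Over this span, to which the counts of the lists that follow also refer, 31.6% of all genes were higher and 29.2% lower. Ptf1a, the factor that directs progenitors to amacrine and horizontal fates, was at background at DD10 and at least 54.6-fold brighter at DD16. It then fell by 0.99 to DD23 (limma adjusted p = 0.0435). Ptf1a is 1 of the 7, but it passed the filter through the later days alone and had to be higher there. The AP-2 factors Tfap2a and Tfap2b rose by 3.57 (adjusted p = 0.000109) and 2.50 (adjusted p = 8.67e-05) from DD10 to DD23. Tfap2c, the other AP-2 factor of the list, had 0.53 and did not pass (limma adjusted p = 0.198). Neurod2 and Nr4a2, factors of subsets of amacrine cells, were 2.63-fold (adjusted p = 0.00665) and 2.82-fold lower (adjusted p = 0.00487) at DD23 than at DD10. The summed level of the list, in multiples of the 75th percentile and governed by its brightest probes, was 20.3 to 27.5 over the lines at DD10, 44.8 to 52.7 at DD16 and 38.8 to 43.3 at DD23. Of 6 markers of glycinergic amacrine cells 1 was higher and 2 lower over that span, with sums of 19.5 to 30 at DD10 and 14.2 to 15.7 at DD23. The 2 lower ones, Tcf4 and Ebf3, were the brightest of this list at DD10, with mean levels of 3.98 and 2.84, and they govern its sum. Of 6 horizontal cell markers 0 were higher and 2 lower, with sums of 10.4 to 16.3 and 8.59 to 10.9, and of 10 Müller glia markers 4 were higher and 1 lower, with sums of 122 to 150 and 147 to 197. Of 6 starburst amacrine markers 1 was higher and 2 lower, of 8 ganglion cell markers 2 were higher and 1 lower, and of the 8 retinal markers 3 were higher and 3 lower. Slc5a7, 1 of the 2 lower starburst markers, was at background at DD23. It passed the filter through the earlier days, so it had to be lower at DD23. The part of these cells in the rise of the GABA genes was not tested.

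Inhibitory neurons of other regions could also be present, and their markers were not absent. Of 13 forebrain interneuron markers 11 were tested, 2 were higher and 3 lower at DD23 than at DD10, and Dlx6 was well above background on no array. Npy was at background at DD10 and at least 7.15-fold brighter at DD23. It passed the filter through the later days, so it had to be higher there. Their sum was 10.6 to 13.1 at DD10, 12.7 to 15.9 at DD16 and 7.52 to 12.3 at DD23, and from DD10 to DD16 it was higher in WT and Isl1KO and lower in B4KO. From DD10 to DD16 3 of these 11 were higher and 3 lower, where 21.9% of all genes were higher and 18.8% lower. From DD16 to DD23 0 were higher and 4 lower, where 19.3% of all genes were higher and 21.9% lower. Dlx1 and Dlx2 rose by 1.35 (limma adjusted p = 0.0335) and 1.28 (adjusted p = 0.0459) to DD16. They then fell by 1.88 (adjusted p = 0.0111) and 2.01 (adjusted p = 0.0102). Of 10 hindbrain and spinal markers 8 were tested, 1 was higher and 2 lower at DD23 than at DD10, and En1 was well above background on no array. Their sum was 2.86 to 4.66 at DD10, 2.06 to 3.02 at DD16 and 2.09 to 2.96 at DD23. In B4KO 3 tested markers of each list were lower than in WT and 0 higher, where 18% of all genes were lower and the line cannot be told apart from its slide, and in Isl1KO 0 were called by limma. The part of these cells in the rise of Slc32a1 was not tested.

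The genes with the profile most like each member were those with the smallest root mean square difference of centred log2 levels over the 9 arrays. For Slc32a1 they were Dlc1 (0.26), Epha8 (0.36), Elfn1 (0.38) and Padi2 (0.38). For Gad2 they were Ppfia2 (0.21), Doc2b (0.25), Neurod1 (0.27) and Dlgap1 (0.28). For Slc6a9 they were Cmtr1 (0.08), Cds2 (0.09), Bicral (0.09) and Grina (0.10). For Gad1 the flat predicted variant probe gave Slc1a4 (0.04), Prss53 (0.05), Dock3 (0.07) and Antxr1 (0.07), and its RefSeq mRNA probe gave Peli3 (0.32), Platr17 (0.34), Gzmm (0.35) and Fmn1 (0.37). No gene was named for both Gad1 probes. The 9 arrays share their days, lines and slides. With quantile normalization Dlc1, Ppfia2 and Cmtr1 again ranked first for Slc32a1, Gad2 and Slc6a9, while for the Gad1 predicted variant probe Serpina1b ranked first and Slc1a4 was no longer among the 4.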

How the data were processed

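Members and gene lists were chosen with earlier results of these data known. Spot intensity was read by the authors in Agilent Feature Extraction 12.0.3.1, per the submitters' processing notes, as a background-subtracted and detrended intensity with no normalization between arrays, per the file headers. Probe coordinates are mm9, as those headers state. The value table the authors deposited held the same intensity scaled by 1 constant per array, with a floor for dim spots.

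Spots of a probe were averaged, 102 probes with outlier flags were left out, and log2 of the 75th percentile was subtracted. Of 56605 gene probes 32994 were named through RefSeq (GRCm38.p6), which also gave the promoters. Probes well above background on at least 3 arrays entered limma 3.58.1 (R 4.3.3) with line and day as additive terms (4 residual degrees of freedom), adjusted by Benjamini-Hochberg with a threshold of 0.05. Gene fits used the brightest probe. With 1 array per line and day, the spread is the departure from additivity, which may be technical. The limma fit was tested on simulated data. A bound ("at least") sets each dim value to the array's lowest signal well above background. Genes were named from the lists, as those that passed with the largest that did not, and by likeness of profile. The number of arrays limits the precision. Alternatives stand in the closing section. Some of the named genes are left out.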

Additional observations from a re-analysis of the deposited data

How the results depend on the processing

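Of 623 refits of single probes 580 kept their direction and their side of the threshold, among them all DD10 to DD23 differences. Requiring all 9 arrays well above background left 2 probes or genes higher in each comparison of days. The 1 gene and 1 probe lower from DD16 to DD23 (Gad1 predicted variant) went to 0 with normexp, an intensity trend, WT and Isl1KO arrays only, and in all 9 fits without 1 array (0 to 0). They went to 0 also with the mean of probes or the Gad1 RefSeq mRNA probe (genes) and a filter of 1 array (probes). With the mean of probes or the Gad1 RefSeq mRNA probe, the 1 gene lower in B4KO than in WT, and the 1 gene higher in Isl1KO than in B4KO, became 0, and the latter became 2 with an intensity trend. Without 1 array, the latter counted 1 to 2 genes and 1 to 2 probes. Likewise 0 to 1 probes were lower at DD16 than at DD10 and 0 to 1 probes higher in B4KO than in WT. The causes were not tested beyond the probe used.

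With normexp, uncalled values changed sign for the Gad1 cerebellum cDNA from DD10 to DD16 (0.046), and for Gad1 predicted variant in Isl1KO (0.025), Slc6a11 in B4KO (-0.073), Gad2 RefSeq mRNA in B4KO (-0.16) and Gad1 RefSeq mRNA in B4KO (-0.022), each against WT. Leaving out 1 array, differences from WT that were uncalled with all arrays changed sign within these ranges. In Isl1KO they were -0.11 to 0.38 for Gad2 RefSeq mRNA, -0.42 to 0.17 for Slc32a1 and -0.032 to 0.42 for Gad1 RefSeq mRNA. In B4KO they were -0.38 to 0.36 for Slc6a11, -0.48 to 0.35 for Gad2 RefSeq mRNA, -0.14 to 0.50 for Slc32a1 and -0.10 to 0.64 for Gad1 RefSeq mRNA. The value of 0.64, without the B4KO array of DD23, was a call. The Gad2 diencephalon cDNA lost its DD16 to DD23 call without the WT array of DD16 or DD23, the B4KO array of DD16 or the Isl1KO array of DD23 (highest adjusted p of limma 0.0968).

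The line and day terms of the fit already compare the days within each line, and no replicate block was added to it, since each line and day had 1 array. The slide as a random block could not be fitted, since the slide is fixed by the line. The Gad1 RefSeq mRNA probe in the gene fit was chosen after seeing the data. Signal over background limits Slc6a5, Slc6a11 and the DD10 values of Gad1 and Gad2.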
